A study of Homo sapiens with 8 samples.

Results

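EMP3, DTNA, WDR72, RAB11FIP1, CAPN2 and CREB5 are 6 protein-coding genes that were chosen by their measured values, for a large rise with fluvastatin across both MM cell lines as a whole. They are 6 of 13129 protein-coding genes tested and of 58219 genes listed in the data. The libraries came from H929 and KMS11, a pair of established multiple myeloma (MM) cell lines with the t(4;14) translocation. Both were kept for 24 h in 2 µM fluvastatin or in ethanol, the solvent control, and RNA of 2 biological replicates was sequenced for every line under either condition, which gave 8 libraries. Each line is a single established line, and no t(4;14)-negative cells were sequenced in these 8 libraries. The t(4;14) target genes were present in both lines. In length-scaled abundance (TPM), FGFR3 was at 5.33 to 10.8 in H929 and 75.3 to 95.2 in KMS11. NSD2 was at 112 to 141 TPM in H929 and 83.6 to 118 TPM in KMS11. All 7 plasma cell markers examined were above 1 TPM in some library, JCHAIN at 3935 to 6237 TPM in every library. Of 8 markers of other cell types, 4 were above 1 TPM in some library (CD3E, PECAM1, EPCAM and KRT8), and CD14 was listed at 0 in every library. Their summed level was 8.45 to 12.35 TPM in H929, where PECAM1 was at 5.87 to 7.98 TPM and CD3E at 1.49 to 3.54 TPM. The sum was 34.05 to 39.23 TPM in KMS11, where EPCAM made up 30.2 to 35.9 TPM against at most 0.04 TPM in H929.

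Fluvastatin inhibits HMG-CoA reductase, the enzyme that makes mevalonate for the synthesis of sterols and of the isoprenoids that anchor small GTPases to membranes. The 6 genes do not form a known pathway. They encode a transcription factor (CREB5), a protease (CAPN2), a pair of membrane-associated proteins (EMP3 and DTNA) and a pair of proteins of vesicle traffic (RAB11FIP1 and WDR72).

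Because these genes were picked for a rise with fluvastatin, their change with the drug is given as a description, without a test. A log2 change was estimated from expected counts, the fragments that RSEM assigned to each gene, and its error is a standard error (SE) from edgeR. TPM is scaled for transcript length and was used to compare levels between genes. All 6 passed the filter on low counts, WDR72 through H929 alone. Across both lines, 854 genes passed an adjusted p of 0.05 in edgeR's quasi-likelihood test as higher with fluvastatin, which is 6.5% of those tested, and 516 as lower, which is 3.93%. These shares give the background for the lists of related genes below. By size of log2 change across both lines among all 13129 tested genes, and as a description only, CREB5 stood at place 27, EMP3 at 114, RAB11FIP1 at 224, DTNA at 251 and CAPN2 at 587. WDR72 is given no place, since its change rested on H929. The rule named genes and gave no threshold, so that no gene lies just inside or outside it.

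**Figure D1:**
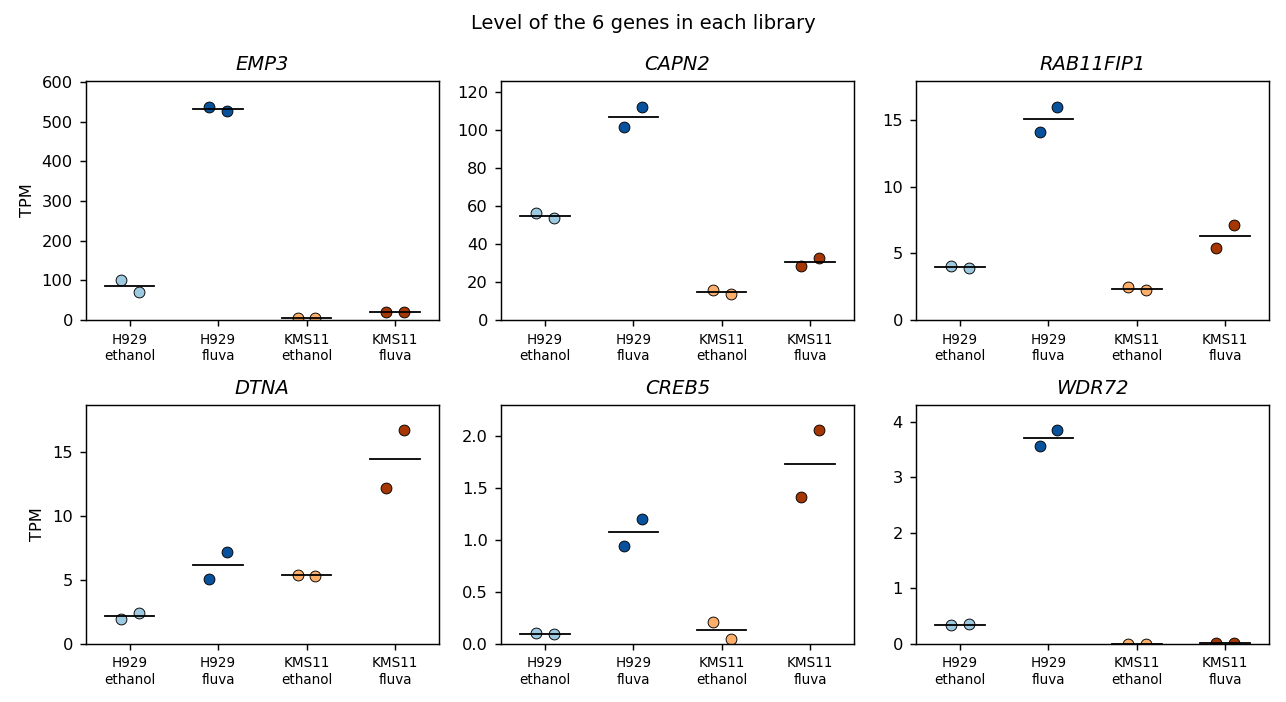
Level of each of the 6 genes in TPM (linear axes from 0, a different scale in each panel) in the 8 libraries, grouped by line and treatment; points are libraries and bars are means of 2. Both fluvastatin libraries lie above both ethanol libraries of the same line in every panel, but WDR72 is at 0 or 0.01 TPM in KMS11.

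The stretches of 250 bases upstream of the RefSeq start of CREB5, CAPN2 and EMP3 are shown here because CREB5 binds the cAMP response element (TGACGTCA) and because these promoters hold sequence matches that differ between the genes. They were read from RefSeq in build GRCh38.p14, in which 5 of the 6 genes were found. Capitals mark the AP-1 site TGACTCA, the CCAAT box CCAAT, the TATA box TATAAA and the shorter TGACG, on either strand, and overlapping matches run together.
CREB5, chr7:28412268-28412517, plus strand: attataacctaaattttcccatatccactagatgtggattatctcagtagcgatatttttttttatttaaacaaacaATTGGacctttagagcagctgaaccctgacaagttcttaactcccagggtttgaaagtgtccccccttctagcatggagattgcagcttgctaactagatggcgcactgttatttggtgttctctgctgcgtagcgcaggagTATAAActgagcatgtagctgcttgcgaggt
CAPN2, chr1:223701347-223701596, plus strand: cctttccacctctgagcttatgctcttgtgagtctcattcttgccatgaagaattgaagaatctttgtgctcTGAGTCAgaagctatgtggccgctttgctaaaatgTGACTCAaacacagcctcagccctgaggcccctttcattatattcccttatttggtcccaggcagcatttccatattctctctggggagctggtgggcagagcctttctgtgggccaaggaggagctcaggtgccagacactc
EMP3, chr19:48325302-48325551, plus strand: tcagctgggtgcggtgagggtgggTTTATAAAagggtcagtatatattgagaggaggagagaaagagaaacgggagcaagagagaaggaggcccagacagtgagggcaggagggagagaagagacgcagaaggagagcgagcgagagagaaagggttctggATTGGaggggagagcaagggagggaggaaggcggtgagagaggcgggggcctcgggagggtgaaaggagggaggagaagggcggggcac

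None of the 5 windows held TGACGTCA, which 1.65% of 35116 promoter windows of the same length hold. The CAPN2 window held 2 matches to TGACTCA, at 178 to 172 and 143 to 137 bases before the start, while 4.2% of all windows hold at least 1. The CREB5 window held a TATAAA match at 31 to 26 bases before the start, and EMP3 held 2 overlapping ones farther out, at 226 to 221 and 224 to 219 bases; 10.7% of all windows hold one. A CCAAT match lay in the windows of CREB5, EMP3 and WDR72, as in 32% of all windows, and DTNA held 1 TGACG match, as in 21.2% of all. These matches describe letters in a window and not bound sites. For EMP3 and CREB5 the RefSeq start lies inside the longer span that GENCODE 44 gives the gene.

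CREB5 (ENSG00000146592.16, GRCh38 chr7:28299321-28825894, plus strand) encodes a leucine zipper transcription factor related to ATF2 and ATF7. In H929, CREB5 was at 0.10 and 0.09 TPM in ethanol and at 0.94 and 1.2 TPM in fluvastatin. In KMS11, it was at 0.21 and 0.05 TPM in ethanol and at 1.41 and 2.05 TPM in fluvastatin. Ethanol levels were low in both lines and did not overlap the fluvastatin levels, and they rested on 14 to 24 fragments per library. The fluvastatin libraries held 112 and 226 fragments in H929 and 246 and 410 in KMS11. The log2 change was 3.08 (SE 0.33) in H929, 8.45-fold, and 4.55 (SE 0.35) in KMS11, 23.4-fold. The 2 KMS11 ethanol libraries held like numbers of fragments, 14 and 17, and their TPM differed because the transcript length estimated for CREB5 was 1417 bases in replicate 1 and 5929 bases in replicate 2.

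CAPN2 (ENSG00000162909.17, chr1:223701593-223776018, plus strand) encodes the catalytic subunit of calpain-2, a calcium-dependent protease. In H929, CAPN2 was at 56.1 and 53.5 TPM in ethanol and at 102 and 112 TPM in fluvastatin. In KMS11, it was at 15.6 and 13.9 TPM in ethanol and at 28.2 and 32.5 TPM in fluvastatin. CAPN2 was thus higher in H929 than in KMS11, with no overlap, and both fluvastatin libraries exceeded both ethanol libraries in each line. Its log2 change was the smallest of the 6, at 0.95 (SE 0.09) in H929 and 1.17 (SE 0.09) in KMS11, which is 1.93-fold and 2.26-fold.

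EMP3 (ENSG00000142227.10, chr19:48321509-48330553, plus strand) encodes a membrane protein with several membrane-spanning segments, of the family of the peripheral myelin protein PMP22. In H929, EMP3 was at 101 and 71.1 TPM in ethanol and at 538 and 526 TPM in fluvastatin. In KMS11, it was at 4.35 and 4.78 TPM in ethanol and at 20.5 and 19.6 TPM in fluvastatin. The fluvastatin libraries of KMS11 therefore stayed below the ethanol libraries of H929. EMP3 lay at percentile 99.5 of protein-coding genes by TPM in both H929 fluvastatin libraries and at percentiles 60.7 and 62.7 in the KMS11 ethanol libraries. The log2 change was 2.74 (SE 0.16) in H929, 6.68-fold, and 2.16 (SE 0.19) in KMS11, 4.49-fold.

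DTNA (ENSG00000134769.21, chr18:34493291-34891844, plus strand) encodes α-dystrobrevin, which binds dystrophin and syntrophins under the cell membrane. In H929, DTNA was at 1.93 and 2.37 TPM in ethanol and at 5.06 and 7.19 TPM in fluvastatin. In KMS11, it was at 5.38 and 5.31 TPM in ethanol and at 12.2 and 16.7 TPM in fluvastatin. DTNA was the only one of the 6 with higher ethanol levels in KMS11 in both libraries, and its KMS11 ethanol levels fell within the range of the H929 fluvastatin levels. The log2 change was 1.68 (SE 0.15) in H929, 3.20-fold, and 1.66 (SE 0.14) in KMS11, 3.17-fold.

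RAB11FIP1 (ENSG00000156675.15, chr8:37858618-37899497, minus strand) encodes a protein that binds the GTPase RAB11 on recycling endosomes. In H929, RAB11FIP1 was at 4.06 and 3.87 TPM in ethanol and at 14.1 and 16.0 TPM in fluvastatin. In KMS11, it was at 2.44 and 2.24 TPM in ethanol and at 5.42 and 7.13 TPM in fluvastatin. H929 was higher than KMS11 under each treatment, and treatments did not overlap within a line. The log2 change was 1.99 (SE 0.12) in H929, 3.98-fold, and 1.56 (SE 0.13) in KMS11, 2.94-fold.

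WDR72 (ENSG00000166415.14, chr15:53513741-53762878, minus strand) encodes a WD-repeat protein that is needed for enamel formation. In H929, WDR72 was at 0.34 and 0.35 TPM in ethanol, with 108 and 107 fragments, and at 3.57 and 3.85 TPM in fluvastatin, with 882 and 1085 fragments. In KMS11, both ethanol libraries held 0 fragments and both fluvastatin libraries held 1. WDR72 could thus be followed in H929 only, where its log2 change was 3.37 (SE 0.17), 10.4-fold, and the description of these genes as shared by both lines held for 5 of the 6. A count of 0 in a KMS11 ethanol library allows up to 3 fragments, and with that floor H929, at a mean of 3.39 fragments for each 1e6 of its total count, was at least 45.7-fold higher in ethanol. In fluvastatin, the 1967 fragments of H929 against 2 of KMS11 gave a ratio per total count of 1280, with a 95% Clopper-Pearson interval of 353 to 10500. The floor and the interval cover counting error only. WDR72 was picked for its rise with fluvastatin and passed the filter through H929 alone. Both ratios are therefore descriptions and not tests, and the interval does not allow for that choice.

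**Figure D2:**
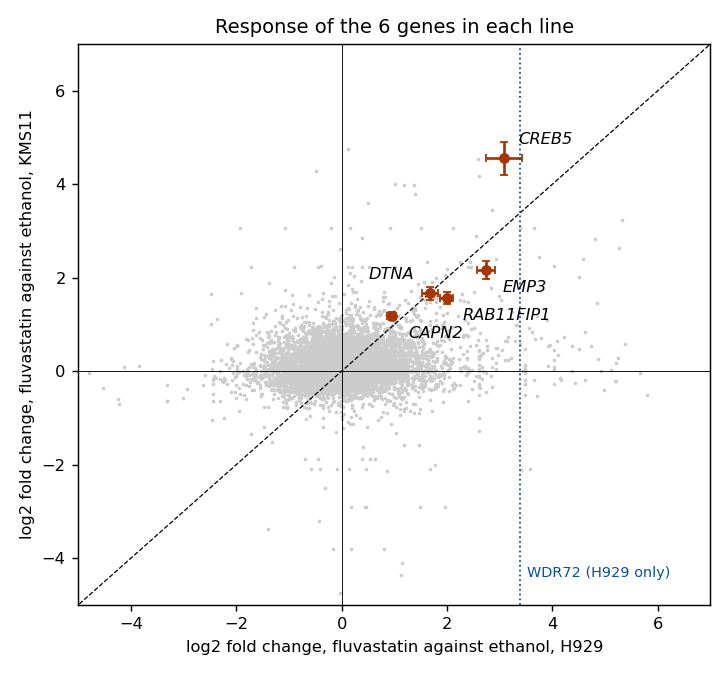
Log2 fold change with fluvastatin against ethanol in H929 (x axis) and KMS11 (y axis), for 5 of the genes (points with SE bars) and other genes at a mean log2 CPM of 1 or more (grey). CREB5 lies above the dashed line of equal change and EMP3 and RAB11FIP1 below it, at 2.74 and 1.99 in H929 against 2.16 and 1.56 in KMS11; the dotted line marks WDR72, at 3.37 in H929 and without a KMS11 value.

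The order of the levels differed between the lines. In H929 ethanol, the order by TPM was EMP3, CAPN2, RAB11FIP1, DTNA, WDR72 and CREB5. In KMS11 ethanol, it was CAPN2, DTNA, EMP3, RAB11FIP1, CREB5 and WDR72. Neighbours in either order did not overlap between their 2 libraries. With 2 libraries per group, the smallest two-sided p of an exact permutation test on a single value is 0.333, and the models across all genes below share their estimate of the spread.

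The difference between the lines in ethanol was not the value used to choose these genes and was tested. The same ethanol libraries entered the rise that chose the genes, so these p values may not be fully free of that choice. CAPN2 was lower in KMS11 by a log2 difference of -2.42 (SE 0.09), with an adjusted p of 1.3e-08 in edgeR's quasi-likelihood test. EMP3 differed by -4.64 (SE 0.19, adjusted p = 2.6e-08) and RAB11FIP1 by -1.02 (SE 0.13, adjusted p = 4.9e-05) by the same edgeR test. DTNA was higher in KMS11 by 0.96 (SE 0.15, adjusted p = 0.0002 by edgeR). WDR72 is given without a test here, since it passed the filter through H929 alone. CREB5 was not called, at -0.99 (SE 0.42, adjusted p = 0.058 by edgeR); it had an adjusted p of 0.017 without H929 fluvastatin replicate 1 and of 0.019 without replicate 2. Of the 5 genes with fragments in both lines, 1 was thus called higher and 3 lower in KMS11, against 35.6% and 36.4% of all tested genes. A call between these lines was therefore common among all genes, and the count for these 5 does not stand out from it.

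How far the responses of H929 and KMS11 differed was taken as KMS11 minus H929 on the log2 scale. It is a different contrast from the mean rise over both, but the genes were described as shared by both lines. Such a choice can favour like responses, so the count below is not an independent test. By edgeR's quasi-likelihood test, 0 of the 5 genes with fragments in both lines passed an adjusted p of 0.05, against 11.7% of all tested genes with a larger log2 change in KMS11 and 11.5% with a larger one in H929. At an unadjusted p of 0.05 the count was 3, and by DESeq2 it was 1. With a term for replicate number in each line, which leaves 2 residual degrees of freedom, it was 2, EMP3 and CREB5. The intervals below are 95% intervals, unadjusted. For CREB5 the difference was 1.47 (0.35 to 2.59; adjusted p = 0.060 by edgeR), for EMP3 -0.57 (-1.12 to -0.03; adjusted p = 0.11) and for RAB11FIP1 -0.44 (-0.82 to -0.05; adjusted p = 0.097). For CAPN2 it was 0.22 (-0.04 to 0.49; adjusted p = 0.20 by edgeR) and for DTNA -0.02 (-0.46 to 0.43; adjusted p = 0.99). Equal responses were not shown for any gene. WDR72 has no usable value here, since KMS11 held 2 fragments in all. A single library decided the calls of 3 genes: EMP3 was called without H929 ethanol replicate 1 (-0.84, adjusted p = 0.022 by edgeR), RAB11FIP1 without KMS11 fluvastatin replicate 2 (-0.60, adjusted p = 0.017 by edgeR) and CREB5 without H929 fluvastatin replicate 2 (1.99, adjusted p = 0.014 by edgeR). With each library's trend with GC content removed, 4 were called, EMP3 at -1.08 (adjusted p = 0.0013 by edgeR).

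The other members of the families and complexes to which these proteins belong were gathered in 6 lists of 67 genes, of which 51 were tested. Within H929, 23 of the 51 rose (45.1%) and 3 fell (5.88%), against 22.7% and 19.3% of all tested genes. Within KMS11, 1 rose (1.96%) and 0 fell, against 2.58% and 0.533%. Across both lines, 9 rose (17.6%) and 1 fell (1.96%), against the 6.5% and 3.93% given above, and the median log2 change of the 51 was 0.29, against 0.03 for all tested genes. The 10 calls across both lines depended on single libraries, and with a term for replicate number in each line they numbered 0. They became 0 when either ethanol library of H929 was left out. Leaving out fluvastatin replicate 1 or 2 of H929 gave 1 or 4 calls, and leaving out ethanol replicate 2 of KMS11 gave 5. The KMS11 count was 0 without either KMS11 ethanol replicate, 12 without KMS11 fluvastatin replicate 2 and 2 without either H929 fluvastatin replicate. The count of 0 that fell in KMS11 comes from edgeR's quasi-likelihood test; it was 3 at an unadjusted p of 0.05 and 1 by DESeq2.

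For the counts by list that follow, 6.5% of all tested genes rose and 3.93% fell across both lines. Within H929, 22.7% rose and 19.3% fell. No single list was tested against these shares. In the calpain list, 3 of 10 tested genes rose across both lines and 6 of 10 rose within H929. CAPNS1, the small regulatory subunit that pairs with CAPN2, was at 118 and 105 TPM in H929 ethanol, 181 and 187 TPM in H929 fluvastatin, 271 and 255 TPM in KMS11 ethanol and 313 and 301 TPM in KMS11 fluvastatin. It rose by 0.61 (SE 0.11) across both lines (adjusted p = 0.016 by edgeR), and its levels did not overlap between treatments in either line. CAPN1, the catalytic subunit of calpain-1, rose by 0.71 (SE 0.15, adjusted p = 0.025 by edgeR). Over 19 alternatives the call of CAPNS1 was lost in 5 and that of CAPN1 in 7, both without H929 ethanol replicate 1 or 2 or H929 fluvastatin replicate 1, and that of CAPN1 also without KMS11 ethanol replicate 2. CAST encodes calpastatin, the inhibitor of both calpains. It was at 18.8 and 18.6 TPM in H929 ethanol, 49.7 and 57.6 TPM in H929 fluvastatin, 46.3 and 42 TPM in KMS11 ethanol and 52.0 and 59.2 TPM in KMS11 fluvastatin. In ethanol CAST was thus lower in H929, and in fluvastatin the lines overlapped. CAST rose by 1.02 (SE 0.20, adjusted p = 0.020 by edgeR) across both lines, by 1.55 (SE 0.09, adjusted p = 3.9e-06) in H929 and by 0.49 (SE 0.09, adjusted p = 0.021) in KMS11, and its response was larger in H929 (adjusted p = 0.00078 by edgeR). Across both lines CAST lost its call without H929 ethanol replicate 1, H929 ethanol replicate 2 or H929 fluvastatin replicate 1, with adjusted p values by edgeR of 0.064, 0.090 and 0.072. Within KMS11 its call was lost without either KMS11 ethanol replicate (adjusted p = 0.284 and 0.293 by edgeR) and with limma on TPM (adjusted p = 0.164 and 0.175).

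In the list of the dystrophin complex, 2 of 11 tested genes rose across both lines, SGCB among them, and 5 rose and 1 fell within H929. SNTB1, β1-syntrophin, was named after its values were seen. It was at 2.60 and 2.97 TPM in H929 ethanol and 14.5 and 16.7 TPM in H929 fluvastatin, and between 2.28 and 2.5 TPM in all 4 KMS11 libraries. Its log2 change was 2.48 (SE 0.12, adjusted p = 1.6e-06 by edgeR) in H929 and 0.03 (SE 0.12, adjusted p = 0.91) in KMS11. SGCB, β-sarcoglycan, rose by 0.45 across both lines (SE 0.10, adjusted p = 0.028 by edgeR), a call lost in 11 of 19 alternatives and with 7 of 8 single libraries left out, all but KMS11 fluvastatin replicate 1 (adjusted p = 0.0504 to 0.105 by edgeR). Across both lines, the closest paralog DTNB stood at -0.01 (SE 0.14, adjusted p = 0.96 by edgeR), and utrophin, UTRN, at 0.38 (SE 0.15, adjusted p = 0.12). Within H929, UTRN rose by 0.64 (SE 0.14, adjusted p = 0.0049 by edgeR), while DTNB stood at -0.13 (SE 0.18, adjusted p = 0.60). Within KMS11, neither was called, with UTRN at 0.10 (SE 0.16, adjusted p = 0.74 by edgeR).

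In the EMP family, 3 of 4 genes were tested. Across both lines 1 rose and 1 fell, and within H929 1 rose and 2 fell. EMP1 rose across both lines by 2.48 (SE 0.46, adjusted p = 0.019 by edgeR), but at no more than 0.58 TPM in any library. EMP2 fell by 0.41 on the log2 scale (SE 0.08, adjusted p = 0.022 by edgeR), from 13.3 and 12.8 TPM to 9.41 and 8.79 TPM in H929 and from 29.4 and 32.4 TPM to 23.7 and 24.7 TPM in KMS11. The call of EMP1 was lost without either H929 ethanol replicate (adjusted p = 0.056 and 0.078 by edgeR), and that of EMP2 without any one of the H929 libraries (adjusted p = 0.065 to 0.090 by edgeR). In each line, both fluvastatin libraries were lower than both ethanol libraries for EMP2 and higher for EMP3.

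In the list of RAB11 recycling, 1 of 10 tested genes rose across both lines and 4 within H929. RAB11A and RAB11B, the GTPases that RAB11FIP1 binds, stood at 0.26 (SE 0.08, adjusted p = 0.066) and 0.36 (SE 0.27, adjusted p = 0.38) across both lines by edgeR. Within H929, RAB11A rose by 0.28 (SE 0.10, adjusted p = 0.045 by edgeR), a call lost in 14 of 18 alternatives. RAB11B was not called there, at -0.05 (SE 0.28, adjusted p = 0.91 by edgeR). RAB11FIP5, of the same family, rose by 0.77 (SE 0.21, adjusted p = 0.049 by edgeR), a call lost in 13 of 19 alternatives and with 7 of 8 single libraries left out, all but KMS11 fluvastatin replicate 2 (adjusted p = 0.056 to 0.173 by edgeR). MYO5B, a motor of recycling endosomes that was named after its values were seen, was at 2.45 and 1.93 TPM in H929 ethanol and 9.70 and 16.2 TPM in H929 fluvastatin, and between 1.54 and 2.13 TPM in KMS11. Its log2 change was 2.64 (SE 0.20, adjusted p = 1.2e-05 by edgeR) in H929 and 0.35 (SE 0.20, adjusted p = 0.32) in KMS11.

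In the rabconnectin group, which holds WDR7, the closest paralog of WDR72, 1 of 4 genes rose across both lines and 2 within H929. Across both lines, DMXL1 rose by 0.28 (SE 0.07, adjusted p = 0.043 by edgeR), a call lost in 15 of 19 alternatives and with each of the 8 libraries left out (adjusted p = 0.059 to 0.155 by edgeR), while WDR7 stood at 0.09 (SE 0.07, adjusted p = 0.44) and DMXL2 at 0.41 (SE 0.14, adjusted p = 0.087). Within H929, DMXL2 rose by 0.71 (SE 0.13, adjusted p = 0.0016 by edgeR) and DMXL1 by 0.34 (SE 0.08, adjusted p = 0.0077). WDR7 was not called there, at 0.05 (SE 0.08, adjusted p = 0.68 by edgeR). Within KMS11, 0 of the 4 were called. WDR7 was at 9.87 to 12.6 TPM over all 8 libraries, so that this closest paralog was well expressed in KMS11, where WDR72 was at or near 0. In the CREB and ATF2 families, 1 of 13 tested genes rose across both lines and 5 within H929. The gene that rose across both lines was CREB3L2, a transcription factor anchored in the endoplasmic reticulum, by 0.60 (SE 0.13, adjusted p = 0.029 by edgeR), a call lost without any one of the H929 libraries (adjusted p = 0.068 to 0.099 by edgeR). Across both lines, ATF2 and ATF7, the closest relatives of CREB5, stood at 0.33 (SE 0.15, adjusted p = 0.17) and 0.28 (SE 0.11, adjusted p = 0.13), and CREB1 at 0.21 (SE 0.13, adjusted p = 0.29) by edgeR. Within H929, ATF2 rose by 0.70 (SE 0.10, adjusted p = 0.00038 by edgeR) and CREB1 by 0.51 (SE 0.10, adjusted p = 0.0028). ATF7 was not called there, at 0.28 (SE 0.14, adjusted p = 0.14 by edgeR). Within KMS11, ATF2, CREB1 and ATF7 stood at -0.04, -0.08 and 0.27, and none was called. ATF2 was at 11.6 to 26.3 TPM and CREB1 at 8.55 to 21.1 TPM, far above the highest CREB5 level of 2.05 TPM.

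RSEM also gives each gene a length, the mean of its transcript lengths weighted by their estimated abundance, which moves when the choice of transcripts moves and was not used to pick the genes. By limma with Benjamini-Hochberg adjustment, 0 of 10388 genes changed in length with fluvastatin across both lines (0%), 647 of them at an unadjusted p of 0.05, and 0 of the 5 genes with fragments in both lines did at either level. The length of WDR72 had no fragments behind it in KMS11 ethanol and was left out. Between the lines, 1218 genes differed (11.7%). RAB11FIP1 was the 1 of the 5 called, and its account was chosen after its values were seen. Its length was 4664 and 4575 bases in H929 ethanol, 4698 and 4957 in H929 fluvastatin, 5568 and 5433 in KMS11 ethanol and 5407 and 5570 in KMS11 fluvastatin. The lines did not overlap, and KMS11 was longer by 0.22 on the log2 scale (SE 0.026, adjusted p = 0.0056 by limma), with adjusted p values of 0.0051 to 0.028 over 10 alternatives. GENCODE 44 lists 6 transcripts of RAB11FIP1, of 1866 to 8185 bases. EMP3 was 741 and 735 bases in H929 ethanol and 785 and 787 in H929 fluvastatin, against 768 and 811 in KMS11 ethanol and 739 and 753 in KMS11 fluvastatin. The EMP3 treatments thus did not overlap in either line and differed in direction, but the difference between the lines' changes was not called, at -0.17 (SE 0.039, adjusted p = 0.26 by limma).

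**Figure D3:**
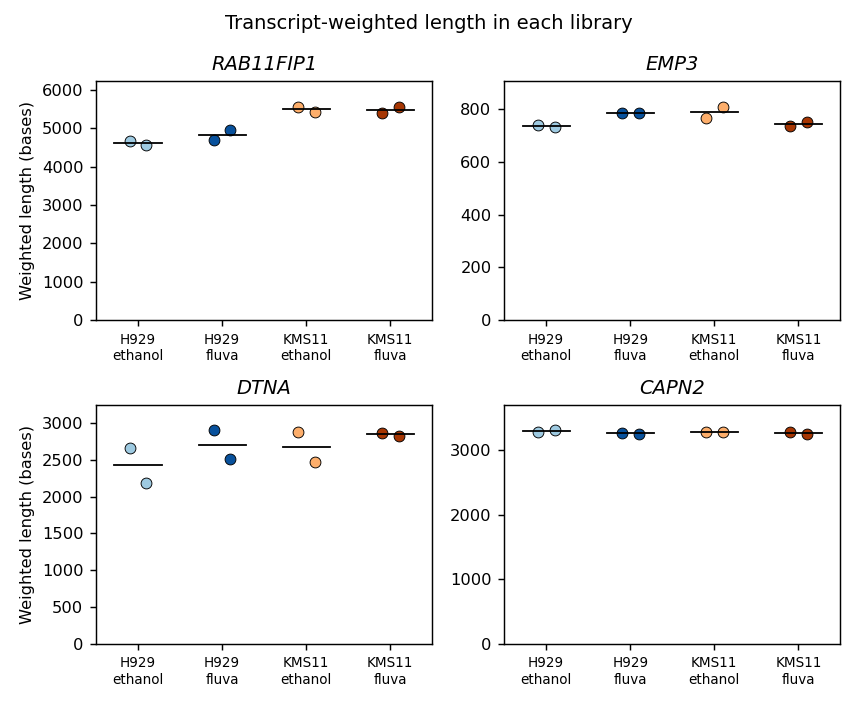
Transcript-weighted length in bases (y axes from 0) for the 4 genes with over 100 fragments in every library, by line and treatment; points are libraries and bars are means of 2. RAB11FIP1 is at 5407 to 5570 bases in KMS11 and 4575 to 4957 bases in H929, while CAPN2 stays between 3248 and 3312 bases in all 8 libraries.

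The genes around these 6 were examined next. Within 250 kb lay 79 annotated genes of any type, of which 32 were tested, with 3 higher and 1 lower across both lines. Of all 16719 genes of any type tested, 4.78% were higher and 3.45% lower. All 4 lay near EMP3, which had 15 of the 32 tested neighbours. CYTH2, an exchange factor for ARF GTPases 138655 bases from EMP3, rose by 0.75 (SE 0.13, adjusted p = 0.014 by edgeR). PLA2G4C, a cytosolic phospholipase, rose by 1.01 (SE 0.24, adjusted p = 0.037) and the zinc finger gene ZNF114 fell by 1.57 on the log2 scale (SE 0.31, adjusted p = 0.037) in the edgeR test. By line, the log2 change of ZNF114 was -1.59 in H929 and 0.0 in KMS11, so its call rested on H929. PLA2G4C lost its call without any one of the 8 libraries, with adjusted p values by edgeR of 0.055 to 0.128. ZNF114 lost it without any H929 library or KMS11 ethanol replicate 2, with adjusted p values by edgeR of 0.053 to 0.203. ODAD1, a cilia gene that overlaps EMP3 on the opposite strand, rose by 2.79 (SE 0.62, adjusted p = 0.032 by edgeR), on at most 38 fragments in a library against 16838 of EMP3. Its call was lost without H929 ethanol replicate 1 or 2, H929 fluvastatin replicate 1, KMS11 ethanol replicate 2 or KMS11 fluvastatin replicate 1, with adjusted p values by edgeR of 0.052 to 0.169. The library kit marks strand, but the strand setting of the counting is not given in the sources used here, so reads of ODAD1 and EMP3 cannot be told apart with certainty. Each of the other 5 genes had at most 2 overlapping genes, all on the opposite strand and with no more than 2 fragments.

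**Figure D4:**
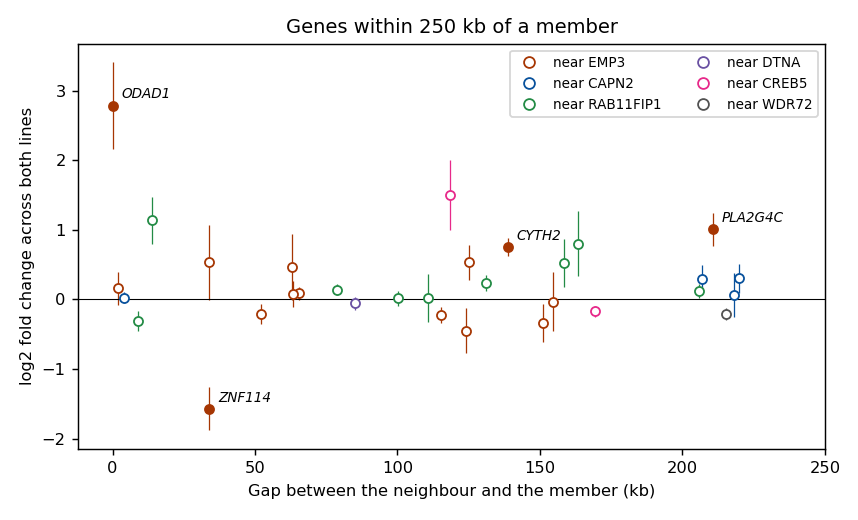
Log2 fold change across both lines (y axis, bars are SE) of the 32 tested genes within 250 kb of one of the 6, against the gap in kb between gene and neighbour (x axis). Filled points passed an adjusted p of 0.05, all near EMP3, with ODAD1 at 2.79, PLA2G4C at 1.01, CYTH2 at 0.75 and ZNF114 at -1.57. The ZNF114 fall rested on H929, with a change of 0.0 in KMS11.

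The pattern of each gene over the 8 libraries was compared with that of 11057 genes by Pearson's r of log2 CPM, as a description. The libraries share 2 lines and 2 treatments, so r follows the difference between lines as well as the response. Closest to EMP3 were ELF4 (r = 0.998) and WDR47 (0.998), and closest to CAPN2 were ARHGAP21 (0.997) and PLCD3 (0.996). Closest to DTNA were ADPRH (0.989) and MAP2 (0.988), and closest to RAB11FIP1 were TUFT1 (0.996) and FRY (0.995). WDR72 was most like PTPRG and PLAAT2 (both 0.999), and CREB5 most like CCL3L3 (0.988) and TLNRD1 (0.969). Since WDR72 held 0 or 1 fragments in each KMS11 library, every r of WDR72 reflects its near absence there as well as its response in H929. CCL3L3 has near-identical copies, among which the counting could divide reads. Over 0.95 stood 1113 genes for WDR72, 528 for EMP3 and 469 for CAPN2, but 54 for RAB11FIP1, 25 for DTNA and 8 for CREB5. Among the 6 themselves, r was 0.992 for EMP3 with CAPN2, 0.973 for EMP3 with WDR72 and 0.968 for CAPN2 with WDR72, the 3 genes with the largest log2 differences towards H929 in ethanol. It was 0.82 for DTNA with CREB5 and -0.252 for DTNA with WDR72.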

How the data were processed

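RNA was sequenced from 8 libraries, 2 for each line and treatment, which were grouped by their labels. The authors made stranded libraries of total RNA, aligned reads to GRCh38 with STAR 2.5.2b and GENCODE 26, and estimated counts with RSEM 1.3.0. The authors deposited expected counts without normalization, TPM scaled by effective length, and transcript-weighted lengths. FPKM was not used. Total expected counts were 26702515 to 41910446 per library.

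Genes were named from GENCODE 44, which held 57392 of 58219 listed identifiers. Expected counts were rounded, filtered with filterByExpr (minimum count 10, minimum total 15), scaled by TMM and tested with edgeR 4.0.16 quasi-likelihood in R 4.3.3, with Benjamini-Hochberg adjustment over 13129 protein-coding genes and a threshold of 0.05. Treatment across both lines was fitted with a line term, and other contrasts as 4 group means. SE is the log2 change divided by the square root of F. Lengths were tested as log2 with limma 3.58.1. Neighbours were tested among genes of any type. The scripts were tested on simulated data. Alternatives were DESeq2 1.42.0, other scalings, filters and thresholds, limma on log2(TPM + 1) and log2(TPM + 0.1), a replicate block, no line term and leaving out each library; removing GC trends, and alternatives for single partner genes, neighbours and the RAB11FIP1 length, were added after seeing the data.

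The 6 genes and all lists were chosen with earlier results of these data known. Named were the 6 genes, up to 3 called genes per list with mean log2 CPM of at least 1 by size of change, the direct partners or closest paralogs EMP1, UTRN, DTNB, WDR7, DMXL2, RAB11A, RAB11B, CAPN1, CAPNS1, CAST, ATF2, ATF7 and CREB1, called neighbours, and the 2 genes most like each; others are said to be chosen after their values were seen. Results on withheld items are not reported here.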

Additional observations from a re-analysis of the deposited data

Results flagged for a closer look

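For 6 of the list genes whose values are given above, the response differed between the lines by edgeR's test of the difference. Each response was larger in H929, and differences are given as KMS11 minus H929 on the log2 scale. The difference was -2.45 (SE 0.16, adjusted p = 5.2e-05 by edgeR) for SNTB1 and -2.3 (SE 0.27, adjusted p = 0.00066) for MYO5B. It was -1.06 (SE 0.13, adjusted p = 0.00078 by edgeR) for CAST, -0.74 (SE 0.14, adjusted p = 0.0049) for ATF2, -0.59 (SE 0.14, adjusted p = 0.015) for CREB1 and -0.58 (SE 0.18, adjusted p = 0.039) for DMXL2. Under 18 alternatives the call was kept in all for SNTB1, MYO5B, CAST and ATF2, in 16 for CREB1 and in 8 for DMXL2. SNTB1 and MYO5B were chosen after their values were seen. In all 51 tested genes of the lists, 9 had a larger log2 change in H929 (17.6%) and 1 in KMS11 (1.96%). The shares of all tested genes were 11.5% and 11.7%.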

How the results depend on the processing

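No log2 change or difference reversed where it was called. The 4 calls between the lines in ethanol among genes with fragments in both held under every alternative, and the log2 changes of the 6 genes kept their direction, with limma on log2(TPM + 1) lowering CREB5 to 1.09 and WDR72 to 0.91. For the response difference, calls among the 6 genes numbered 1 with DESeq2, with no filter and with limma at either pseudocount (there WDR72, which has no usable value), 4 with GC trends removed and 0 to 1 with each library left out. Genes called across both lines numbered 1370, but 161 at an adjusted p of 0.01, 2538 with DESeq2, 4 with no line term, 3130 with GC trends removed and 191 to 1697 with a library left out. Calls among the 51 family and complex genes (partner genes) numbered 10, but 0 at 0.01, 18 with DESeq2, 0 with no line term, 18 with GC trends removed and 0 to 13 with a library left out. Within H929, 5511 genes became 3538 at 0.01. Within KMS11, 409 genes became 129 at 0.01, 926 with DESeq2, 1098 with no filter, 223 and 158 with limma on log2(TPM + 1) and log2(TPM + 0.1), 1580 with GC trends removed and 63 to 2148 with a library left out, and 1 partner gene became 0, 5, 6, 0, 0, 11 and 0 to 12. Genes called for the response difference numbered 3048, but 1258 at 0.01, 1969 with limma on log2(TPM + 0.1) and 1309 to 4269 with a library left out. The causes were not tested.

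The labels number replicates alike in each group but do not say what a number shares. Deviations of same-numbered libraries correlated at 0.648 in H929 and 0.004 in KMS11 over 5868 genes. Pairing by number was thus possible in H929 and not seen in KMS11, and the main fits did not use it. With the replicate block, which leaves 2 residual degrees of freedom, calls numbered 158 genes and 0 partner genes across both lines, 1637 genes and 9 partner genes within KMS11, and 2 of the 6 for the response difference, EMP3 and CREB5. The spread between 2 replicates, and fragment numbers for CREB5 and WDR72, limit the precision.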
